A study of Rattus norvegicus with 36 samples.

Results

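Lcn2 and Clu, the genes of lipocalin 2 and clusterin, were followed in rat kidneys after ischemia, nephrotoxins and control procedures. Members were the probes whose array annotation named either gene, and 2 of 9911 probes qualified (2 of 6394 genes named), X13295_PROBE1 for Lcn2 and NM_012679_PROBE1 for Clu. In the rat assembly GRCr8, RefSeq places Lcn2 (gene ID 170496) on chromosome 3 from 36078432 to 36081851 and Clu (gene ID 24854) on chromosome 15 from 44336619 to 44375861. Which exon or untranslated region each probe targets is not given in the sources used here.

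Lipocalin 2, also called neutrophil gelatinase-associated lipocalin, is a small secreted protein that binds iron-carrying siderophores. It is stored in neutrophil granules, is made by injured tubule cells, and is measured in urine and plasma as an early sign of acute kidney injury. Clusterin is a secreted glycoprotein that acts as an extracellular chaperone, binds lipids and terminal complement, and is also used as a urinary marker of tubular damage.

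Kidney RNA of 31 male rats aged 6 to 8 weeks was measured on 36 CodeLink arrays, with 2 arrays for each of 5 rats. The strain is not given in the sources used here. Ischemia of both kidneys for 40 min was followed by 2 h (4 rats) or 8 h (3 rats) of reperfusion, and a further 3 rats had the 2 h protocol with 50 µg of intravenous αMSH, an anti-inflammatory peptide hormone. Mercuric chloride, a proximal tubule toxin, was injected under the skin at 4 mg/kg and studied at 2 h and 8 h (3 rats each). Cisplatin, a platinum drug toxic to the tubule, was injected into the peritoneum at 20 mg/kg and studied at 2 h (3 rats). Sham surgery lasted 40 min and was studied at 8 h (3 rats). Volume depletion, by the loop diuretic furosemide at 20 mg/kg at the start and at 8 h with a diet lacking sodium, was studied at 24 h (4 rats). Untreated normal rats numbered 5 by the labels, on 7 arrays, while the series description counts 3 normal rats per array lot. Sham surgery was not studied at 2 h, so ischemia and its surgery cannot be told apart at that time.

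The promoter of Lcn2, where factors of the inflammatory response are known to act in other settings, is shown because NF-kB and C/EBP family genes were measured beside Lcn2. It is GRCr8 chr3:36081852-36082030 on the minus strand, from RefSeq and printed 5′ to 3′, with motif matches in capitals.

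Lcn2: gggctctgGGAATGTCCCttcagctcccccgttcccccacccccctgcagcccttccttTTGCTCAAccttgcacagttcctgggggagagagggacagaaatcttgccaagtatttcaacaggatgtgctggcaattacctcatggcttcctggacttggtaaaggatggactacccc

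The first capitals, starting at position -171 from the annotated gene start (36081851), match the NF-kB motif (GGG and TTCC parted by any 3 bases) on the other strand, and 4.53% of 33469 RefSeq promoters of the same length held a match. The second, starting at -120, match the C/EBP motif TTNNGNAA on the other strand, held by 37.2% of promoters. Both strands were searched over a window of 250 bases from the RefSeq promoter table, of which the last 71 lie inside the annotated gene and are not printed. The motifs for STAT (TTCNNNGAA, in 7.67% of promoters), AP-1 (TGANTCA, 6.34%), the heat shock element (GAANNTTC, 7.23%) and the TATA box (TATAAA, 12.9%) were not in this window. The matches are letters and not shown binding sites.

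Levels are intensities divided by the median of the array, and changes are on the log2 scale from the mean of the normal rats of the same array lot. The arrays fall into 2 lots of 24 and 12, which the labels do not assign. They were taken from the number series of the normal rats and the values of the arrays: normal rats 11 and 12, sham, cisplatin and 8 h mercuric chloride rats in lot 2, and all other groups with normal rats 1 to 3 in lot 1. Clu was lower by 0.63 in lot 2 than in lot 1 normal rats (a log2 difference of -0.63) and Lcn2 differed by 0.31, against a median size of 0.18 over all probes. Sham rat 3 had its values displaced by 2 lines against the probe names, and they were moved back (correlation with the median array 0.9843 moved, 0.0652 as deposited). The array of 8 h ischemia rat 3 had the lowest correlation of the others, 0.9164, against 0.9577 to 0.989. Fits were made with limma, with p-values adjusted by Benjamini-Hochberg over all probes tested in a comparison. Both members passed the filter on low values in all 18 comparisons. The number of rats limited the precision, with 2 normal rats in lot 2.

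Against normal rats, Lcn2 was called at an adjusted p under 0.05 in 5 of 8 groups and Clu in 4 of 8. Both were higher after ischemia at 2 h, with or without αMSH, after ischemia at 8 h and after mercuric chloride at 8 h. Volume depletion was called for Lcn2 and not for Clu. Mercuric chloride at 2 h, cisplatin at 2 h and sham surgery gave no call for either gene. Groups of lot 1 share the same 3 normal rats, and those of lot 2 the same 2, so these comparisons are not independent of each other.

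**Figure D1:**
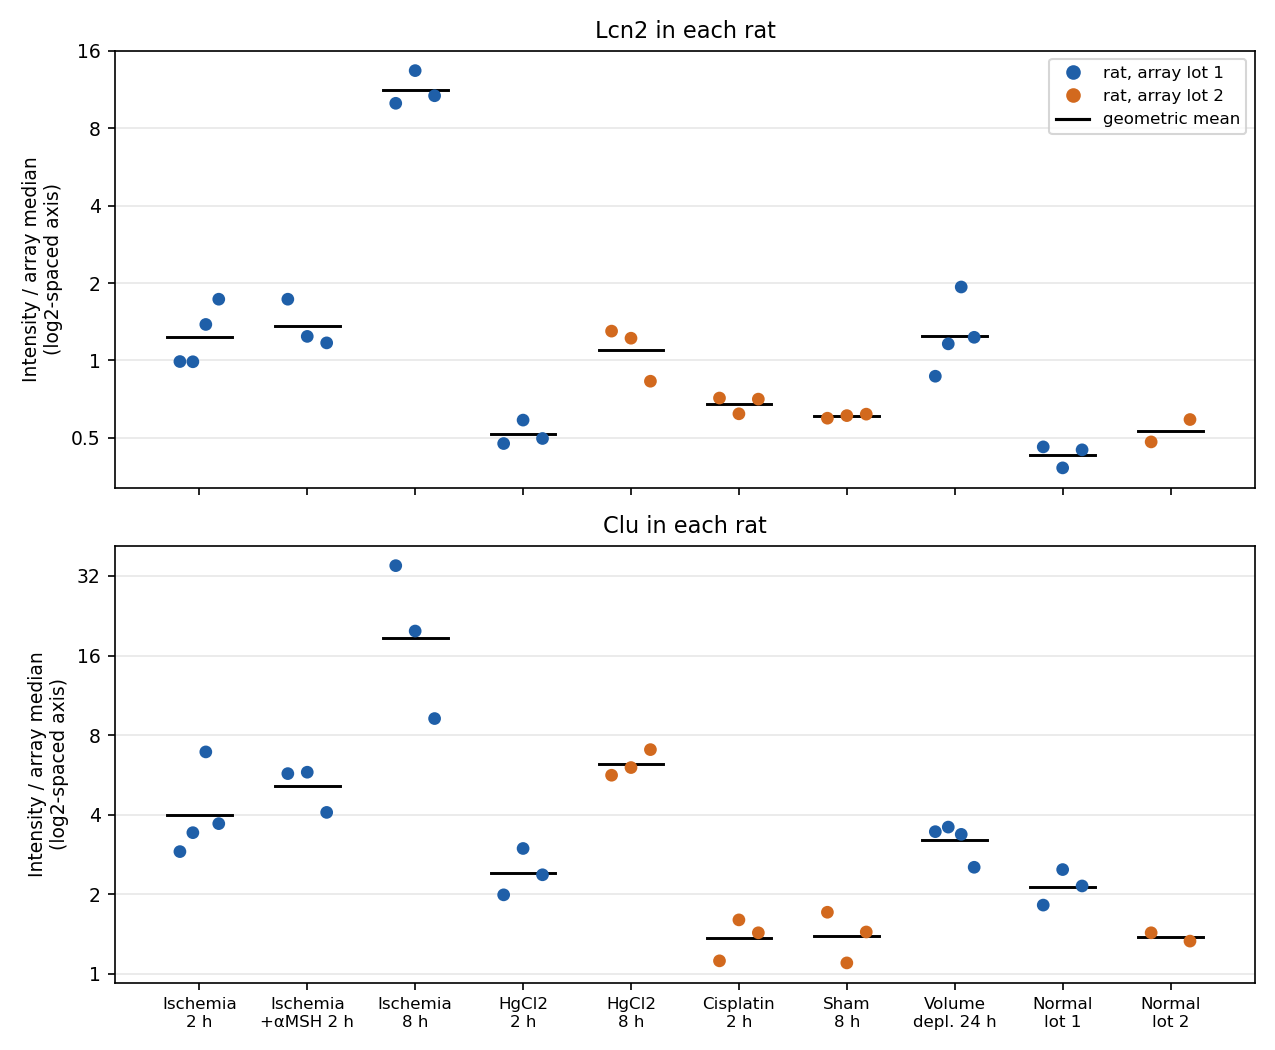
Level of Lcn2 (top) and Clu (bottom) in each rat, as intensity over the array median on a log2-spaced axis, by group; points are rats coloured by array lot and bars are geometric means. The highest levels are those of the 8 h ischemia rats, with Lcn2 between 10 and 13.4 and Clu between 9.24 and 35.0.

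Ischemia at 2 h came first. Lcn2 was at 0.99, 0.988, 1.38 and 1.73 times the array median in the 4 ischemia rats, and at 0.461, 0.382 and 0.449 in the 3 normal rats of the lot. Every ischemia rat lay above every normal rat. Lcn2 rose by 1.53 ± 0.22 (log2 ± SE, 2.88-fold, 95% interval 1.08 to 1.97, adjusted p = 1.34e-05), and 7.36% of 9466 probes were called higher. Clu was at 2.9, 3.42, 6.91 and 3.7 in ischemia rats and at 1.82, 2.48 and 2.15 in normal rats. The groups did not overlap, and ischemia rat 3 was far above its group. Clu rose by 0.90 ± 0.30 (1.87-fold, adjusted p = 0.0464), a call lost when any of 6 of the 7 rats was left out, with the change at 0.64 without ischemia rat 3 (adjusted p = 0.173).

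With αMSH, Lcn2 was at 1.73, 1.24 and 1.17 in the 3 rats with ischemia and the peptide, again against 0.461, 0.382 and 0.449 in normal rats. It rose by 1.66 ± 0.23 (3.17-fold, adjusted p = 1.25e-05), with 6.68% of 9433 probes called higher. Clu was at 5.72, 5.79 and 4.08 in these rats, all above the highest normal rat. It rose by 1.27 ± 0.33 (2.41-fold, adjusted p = 0.00983), and without normal rat 1 the change was 1.15 with an adjusted p of 0.0524. The αMSH and plain ischemia groups overlapped in both genes. Their difference was 0.14 ± 0.22 for Lcn2 (interval -0.31 to 0.58) and 0.36 ± 0.30 for Clu (interval -0.27 to 0.99), and neither passed (adjusted p = 1). No probe of the 9456 tested was called between these groups by limma (0.00%), and 342 had an unadjusted p under 0.05. For Clu the upper bound of 0.99 is above the rise at 2 h of plain ischemia, 0.90.

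At 8 h of reperfusion both genes reached their highest levels of the series. Lcn2 was at 10, 13.4 and 10.7 in the 3 ischemia rats, against 0.461, 0.382 and 0.449 in normal rats. It rose by 4.72 ± 0.23 (26.3-fold, interval 4.24 to 5.19, adjusted p = 1.34e-13), rank 9 by size of rise among 9466 probes, of which 20.8% were called higher. Clu was at 35.0, 19.8 and 9.24 in the same rats, against 1.82, 2.48 and 2.15. All 3 lay above every normal rat, and they differed among themselves far more than in Lcn2. Clu rose by 3.12 ± 0.33 (8.72-fold, interval 2.45 to 3.8, adjusted p = 3.4e-08), rank 36. Rat 3, whose array stood apart, had the lowest Clu, and without it the change was 3.63 for Clu and 4.76 for Lcn2.

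From 2 h to 8 h of reperfusion Lcn2 was higher by a further 3.19 ± 0.22 (9.13-fold, adjusted p = 6.15e-11), rank 3 of 9489 probes, and Clu by 2.22 ± 0.30 (4.65-fold, adjusted p = 3.45e-06), rank 16. In this comparison 20.5% of probes were called higher. Neither gene overlapped between the times.

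Set against sham surgery at the same time, 8 h ischemia gave 4.53 ± 0.35 for Lcn2 (23.0-fold, adjusted p = 4.18e-09) and 3.11 ± 0.49 for Clu (8.64-fold, adjusted p = 4.77e-05), with 11.9% of probes called higher. These groups lie in different lots, so the value is the difference of their changes from the normal rats of each lot, and it shares those normal rats with the comparisons above. Sham rats themselves had Lcn2 at 0.596, 0.61 and 0.618, against 0.482 and 0.589 in the 2 normal rats of lot 2, a change of 0.19 ± 0.26 (adjusted p = 1). Their Clu was at 1.71, 1.1 and 1.44, against 1.43 and 1.33, a change of 0.01 ± 0.36 (adjusted p = 1). Lcn2 lay narrowly above both normal rats and Clu overlapped them, where 0.298% of probes were called higher.

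Mercuric chloride was asked at 2 h and 8 h. At 2 h Lcn2 was at 0.475, 0.586 and 0.497 in treated rats, against 0.461, 0.382 and 0.449 in normal rats, all above them by a small margin. The change was 0.27 ± 0.23 (interval -0.21 to 0.75, adjusted p = 0.556) and was not called, with 3.07% of probes called higher. Clu was at 1.99, 2.98 and 2.37 and overlapped the normal rats, with a change of 0.18 ± 0.33 (adjusted p = 0.84).

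At 8 h of mercuric chloride the larger change was in Clu. It was at 5.64, 6.03 and 7.05 in treated rats, against 1.43 and 1.33 in normal rats of lot 2, with no overlap. Clu rose by 2.17 ± 0.36 (4.5-fold, interval 1.42 to 2.92, adjusted p = 0.000204), rank 30 of 9408 probes, where 5.27% were called higher. Lcn2 was at 1.3, 1.22 and 0.83 in treated rats, against 0.482 and 0.589. It rose by 1.04 ± 0.26 (2.05-fold, interval 0.5 to 1.57, adjusted p = 0.00861), rank 201, and the change was 0.89 with an adjusted p of 0.141 without normal rat 11. Against sham surgery at 8 h, in the same lot, Clu was higher by 2.16 ± 0.33 (4.46-fold, adjusted p = 5.16e-05) and Lcn2 by 0.85 ± 0.23 (1.8-fold, adjusted p = 0.0141), with 5.88% of probes called higher. The Lcn2 call was lost without treated rat 1 (0.72, adjusted p = 0.0877) or treated rat 2 (0.77, adjusted p = 0.0668).

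Between 8 h and 2 h of mercuric chloride, in different lots, the difference was 1.99 ± 0.49 for Clu (interval 0.98 to 3, adjusted p = 0.0543) and 0.77 ± 0.35 for Lcn2 (interval 0.05 to 1.49, adjusted p = 0.454). Neither was called, and 0.501% of probes were called higher. Without a lot term both passed, at 1.36 for Clu (adjusted p = 0.0069) and 1.08 for Lcn2 (adjusted p = 0.00255).

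Cisplatin at 2 h gave Lcn2 at 0.714, 0.62 and 0.707, against 0.482 and 0.589 in normal rats, a change of 0.35 ± 0.26 (interval -0.18 to 0.88, adjusted p = 1). All 3 rats lay above both normal rats, but within the error of the fit, and 0.532% of probes were called higher. Clu was at 1.12, 1.6 and 1.43, on both sides of the normal rats, with a change of -0.02 ± 0.36 (adjusted p = 1).

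Volume depletion for 24 h was called for Lcn2. It was at 0.868, 1.16, 1.93 and 1.23 in the 4 rats, against 0.461, 0.382 and 0.449 in normal rats, with no overlap. Lcn2 rose by 1.53 ± 0.22 (2.89-fold, interval 1.08 to 1.98, adjusted p = 0.000761), where 0.0740% of 9464 probes, 7 in all, were called higher. A fit of the volume depletion and normal rats alone gave the same change with an adjusted p of 0.168, and without 3 arrays of doubtful quality, 2 of them in these groups, the change was 1.51 (adjusted p = 0.0113). Clu was at 3.45, 3.59, 3.37 and 2.53, each above the highest normal rat, but the change of 0.59 ± 0.30 was not called (interval -0.04 to 1.22, adjusted p = 0.897).

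**Figure D2:**
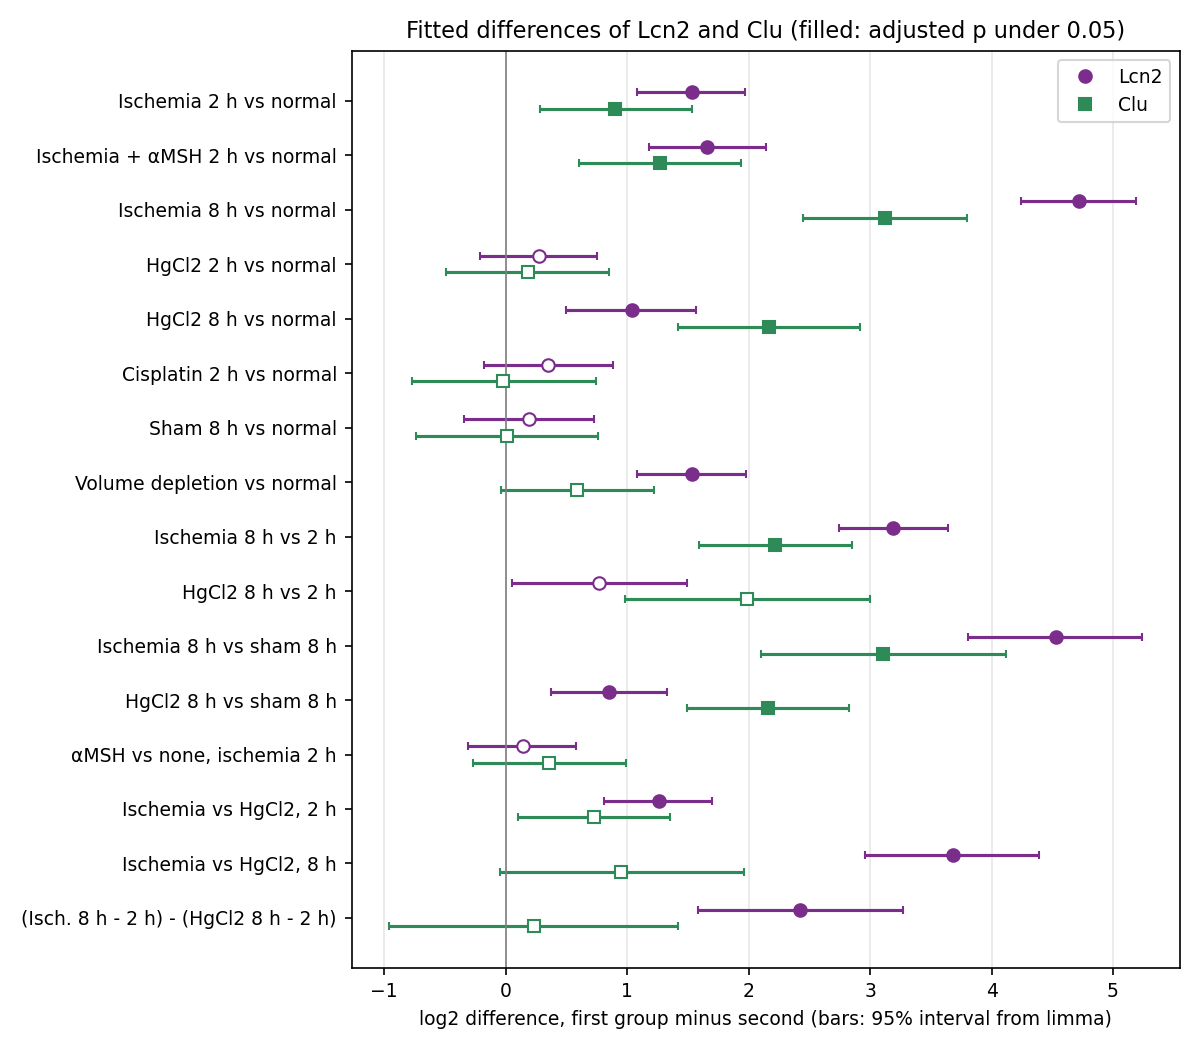
Fitted log2 difference of Lcn2 and Clu in 16 comparisons, first group minus second, with 95% intervals from limma; filled symbols have an adjusted p under 0.05. Lcn2 lies farthest right at 8 h of ischemia (4.72 against normal), and Clu exceeds Lcn2 in the 8 h mercuric chloride comparisons (2.17 and 1.04 against normal).

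Ordered by mean change (± SD over rats), Lcn2 ran from 4.72 ± 0.22 at 8 h of ischemia through 1.66 ± 0.30 with αMSH, 1.53 ± 0.40 at 2 h of ischemia and 1.53 ± 0.48 in volume depletion to 1.04 ± 0.35 at 8 h of mercuric chloride. Cisplatin (0.35 ± 0.11), 2 h mercuric chloride (0.27 ± 0.16) and sham (0.19 ± 0.026) followed. Neighbours overlapped in their rats except 8 h ischemia with the αMSH group, and 8 h mercuric chloride with cisplatin. Clu ran from 3.12 ± 0.97 at 8 h of ischemia and 2.17 ± 0.17 at 8 h of mercuric chloride to 1.27 ± 0.29 with αMSH, 0.90 ± 0.55 at 2 h of ischemia and 0.59 ± 0.23 in volume depletion. The last were 2 h mercuric chloride (0.18 ± 0.29), sham (0.01 ± 0.32) and cisplatin (-0.02 ± 0.26). In that order only 8 h mercuric chloride and the αMSH group did not overlap. Mercuric chloride at 8 h thus stood higher in the order for Clu than for Lcn2, in which the αMSH, 2 h ischemia and volume depletion groups came before it.

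At 2 h, ischemia exceeded mercuric chloride by 1.26 ± 0.22 in Lcn2 (2.39-fold, adjusted p = 0.000196), with no overlap, where 8.09% of probes were called higher. For Clu the difference was 0.73 ± 0.30 (interval 0.1 to 1.35, adjusted p = 0.117) and was not called. At 8 h, ischemia exceeded mercuric chloride by 3.68 ± 0.35 in Lcn2 (12.8-fold, adjusted p = 1.8e-07), rank 6, where 6.79% were called higher. Clu differed by 0.95 ± 0.49 (interval -0.05 to 1.96, adjusted p = 0.233), and by 1.46 with an adjusted p of 0.0148 without 8 h ischemia rat 3. The 8 h groups lie in different lots. Against cisplatin at 2 h, also across lots, ischemia differed by 1.18 ± 0.34 in Lcn2 (adjusted p = 0.0684) and 0.92 ± 0.47 in Clu (adjusted p = 0.518). Mercuric chloride at 2 h differed from cisplatin by -0.08 ± 0.35 in Lcn2 (adjusted p = 0.957) and 0.19 ± 0.49 in Clu (adjusted p = 0.921). None of these 4 was called, where 1.52% of probes were higher in ischemia and 0.362% in mercuric chloride than in cisplatin.

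The change between 2 h and 8 h was compared between the injuries by an interaction term. For Lcn2 it was larger in ischemia than in mercuric chloride by 2.42 ± 0.41 (interval 1.58 to 3.27, adjusted p = 0.000818), with 3.57% of probes called higher. For Clu the difference was 0.23 ± 0.58 (interval -0.96 to 1.42, adjusted p = 0.886). The interval of Clu includes 0 and differences of over 1 either way.

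Within single rats, the change of Lcn2 minus that of Clu was 0.51, 1.75 and 2.52 at 8 h of ischemia, and -0.74, -0.93 and -1.71 at 8 h of mercuric chloride. Measured from the normal rats of each lot, Lcn2 exceeded Clu in all 3 ischemia rats and fell short of it in all 3 mercuric chloride rats. The size and sign of the mercuric chloride values rest on the 2 normal rats of lot 2. The mean difference between the groups was 2.72, with a two-sided exact permutation p of 0.1, the smallest that 3 against 3 rats allow, in a contrast chosen after its values were seen. The groups lie in different lots, and the permutation takes each lot's normal mean as fixed, so this p cannot separate injury from lot. Normal rats of lot 2 differed from those of lot 1 by 0.31 in Lcn2 and by -0.63 in Clu. At 2 h both groups lie in lot 1. The change of Lcn2 minus that of Clu was there 0.76, 0.52, -0.02 and 1.22 in ischemia rats and 0.24, -0.04 and 0.06 in mercuric chloride rats (difference 0.53, exact permutation p = 0.171). In volume depletion it was 0.32, 0.68, 1.5 and 1.27.

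**Figure D3:**
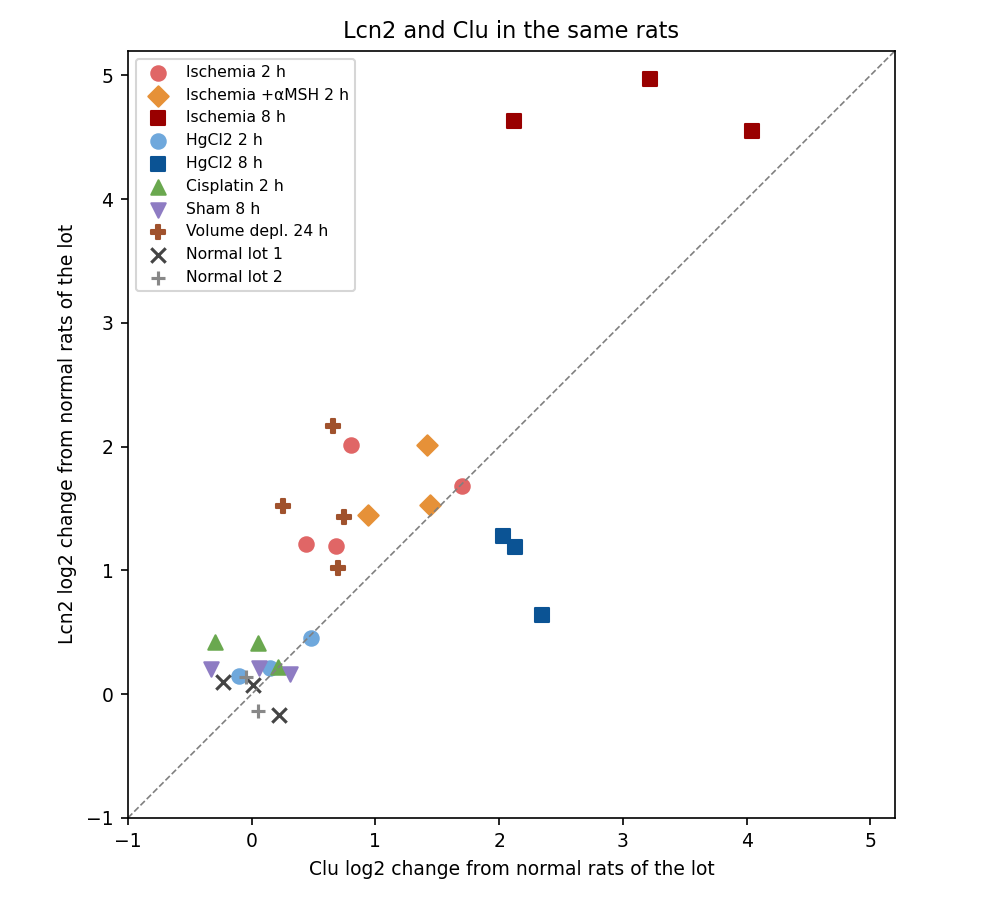
Change of Lcn2 against change of Clu in each of 31 rats, both log2 from the normal rats of the lot, with symbols by group and a dashed line of equal change. The 8 h ischemia rats lie above the line (differences 0.51 to 2.52) and the 8 h mercuric chloride rats below it (-1.71 to -0.74). These groups lie in different lots, so their changes are from different normal rats.

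Whether the genes moved together from rat to rat was asked on deviations from group means, over 31 rats, with permutation within groups and 5 relations in the family. Lcn2 and Clu had r = 0.065 (permutation p = 0.766, adjusted p = 0.892) and rho = -0.00242 (permutation p = 0.992), and r = 0.0863 without the 2 rats farthest on Lcn2. Lcn2 and Havcr1 (Kim-1, a proximal tubule injury protein) had r = 0.337 (permutation p = 0.196) and rho = 0.171 (permutation p = 0.464), and r = 0.152 without those rats. Clu and Havcr1 had r = 0.0258 (permutation p = 0.892), rho = 0.142 (permutation p = 0.51), and r = 0.267 without 8 h ischemia rats 1 and 3. None of the 5 relations passed, with an adjusted p of 0.892 for every r and of 0.85 to 0.992 for rho.

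The 5 rats with 2 arrays give the measurement error. In 8 h ischemia rat 1 the arrays read 9.96 and 10.1 for Lcn2 and 35.6 and 34.5 for Clu, and in rat 2 they read 14.0 and 12.9 for Lcn2 and 18.3 and 21.5 for Clu. The spread of Clu between these rats was thus larger than that between arrays of a rat. In volume depletion rat 1 Lcn2 was at 1.05 and 0.719, a log2 difference of 0.54 and the widest of the 10 pairs, whose lowest was 0.02.

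RNA of whole kidney tissue cannot tell fewer cells of a type from less RNA per cell. Neutrophils store lipocalin 2, and of 14 listed neutrophil genes 3 were measured (S100a9, Cxcr2 and Itgam). Their summed level was 6.17 to 12.7 at 8 h of ischemia, 3.35 to 3.91 at 2 h and 2.74 to 3.92 with αMSH, against 1.21 to 1.31 in normal rats. S100a9, a calcium-binding protein of neutrophils and monocytes, carried most of this, with a rise of 5.02 ± 0.46 at 8 h of ischemia (adjusted p = 3.84e-09). Cxcr2, a neutrophil chemokine receptor, stayed at 0.151 to 0.228 there, near the floor of 0.1 used for dim probes, and rose by 0.80 ± 0.20 (adjusted p = 0.00233). Itgam, an integrin of myeloid cells, changed at 8 h of ischemia by 0.03 (adjusted p = 0.877).

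S100a9 also rose where Lcn2 was not called, by 2.35 at 2 h of mercuric chloride (adjusted p = 0.00188) and by 2.47 in sham rats (adjusted p = 0.0277). Itgam fell by 0.45 at 2 h of mercuric chloride (adjusted p = 0.028). In volume depletion, where Lcn2 was called, S100a9 changed by 0.45 (adjusted p = 1) and the summed level was 1.17 to 1.47. The sum at 8 h of mercuric chloride was 2.53 to 5.45, against 1.39 to 1.51 in normal rats of lot 2. Within groups, Lcn2 and the neutrophil list mean had r = 0.218 (permutation p = 0.364), rho = 0.19 (permutation p = 0.403) and r = 0.369 without the farthest rats. For Clu the same relation had r = 0.0602 (permutation p = 0.769), rho = 0.00806 (permutation p = 0.971) and r = -0.167. The part of these cells in the Lcn2 values was not tested.

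The 4 measured of 6 macrophage genes summed to 14.6 to 20.1 at 8 h of ischemia, against 5.54 to 7.65 in normal rats. Of these, C1qb (1.83) and Cd14 (2.00) rose, where 20.8% of all probes were called higher, while Csf1r was at 1.57 to 1.89 and Ptprc at 0.472 to 0.736, overlapping normal rats. At 2 h of ischemia Cd14 rose by 1.21 and Csf1r and Ptprc fell by 0.54 and 0.72, where 7.37% of all probes were called lower. The 5 measured of 7 proximal tubule genes summed to 69.0 to 90.7 at 8 h of ischemia, against 156 to 194 in normal rats, and 4 of the 5 fell, where 20.9% of all probes were called lower. They summed at 8 h of mercuric chloride to 76.2 to 91.1, against 148 to 155 in normal rats of lot 2, and 3 fell, where 5.67% of all probes were called lower. None of the proximal tubule genes lay at the floor in any rat. Of the 4 liver genes, Alb was at 0.116 to 0.197 at 8 h of ischemia, with Cyp2e1 at 13.4 to 24.4, against 0.1 (the floor) and 21.2 to 38.6 in normal rats of lot 1. Alas2, a heme synthesis enzyme of red blood cell precursors and the 1 measured of 3 red blood cell genes, was called higher in the 4 groups in which Clu was, by 2.49 at 2 h of ischemia, 2.27 with αMSH, 1.92 at 8 h and 1.77 at 8 h of mercuric chloride. Also at 8 h of ischemia, Slc12a1 of the thick ascending limb fell by 1.91, while Umod of that list changed by -1.32 and was not called. The endothelium genes went different ways there. Vwf fell by 1.81, Pecam1 rose by 0.45 (limma adjusted p = 0.0218) and Kdr changed by 0.08 and was not called. The part of these cells in the results was not tested.

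Signals known to induce Lcn2 in other settings (interleukin 1, interleukin 6, NF-kB and C/EBP) were followed through 14 tested of 21 listed genes. At 2 h of ischemia 8 rose and none fell, with a list median of 0.58 against -0.06 over all probes, and with αMSH 8 rose (median 0.6, all probes -0.08). Ischemia at 8 h raised 9 (median 0.86, all probes 0.01). Over all probes 7.36% were called higher at 2 h of ischemia, 6.68% with αMSH and 20.8% at 8 h. Il6, the cytokine interleukin 6, rose by 2.69 ± 0.36 at 2 h, 3.51 ± 0.38 with αMSH and 2.80 ± 0.38 at 8 h of ischemia (adjusted p = 5.51e-06, 3.58e-07 and 1.96e-06). Il1b, the cytokine interleukin 1 beta, rose by 1.02 ± 0.26 at 2 h (adjusted p = 0.00673) and 2.75 ± 0.27 at 8 h (adjusted p = 1.48e-08).

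In the other groups fewer of the 14 were called. At 2 h of mercuric chloride Il1b alone rose, by 1.87 ± 0.27 (adjusted p = 6.97e-05), and Lcn2 was not called. Mercuric chloride at 8 h raised 3 of 14 (median 0.05, all probes -0.03), with Cebpd, a C/EBP transcription factor, at 1.98 ± 0.32 (adjusted p = 0.000121). Over all probes 3.07% were called higher at 2 h and 5.27% at 8 h of mercuric chloride. Cebpd was the single one called after cisplatin (1.96, adjusted p = 0.00187) and after sham surgery (2.25, adjusted p = 0.00114), where Lcn2 was not called. In these groups 0.532% and 0.298% of all probes were called higher. Cebpd also rose in every ischemia group, by 1.83 at 2 h, 2.01 with αMSH and 2.38 at 8 h (limma adjusted p = 1.84e-05, 1.5e-05 and 2.8e-07). With 0.0740% of all probes called higher in volume depletion, none of the 14 was (median 0.12, all probes -0.00), where Il6 changed by 0.20 and Cebpd by 0.82 (adjusted p = 0.374). These lists were chosen with results of these data known.

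Receptors of lipocalin 2 went the other way at 8 h of ischemia. Lrp2 (megalin), the endocytic receptor of the proximal tubule that takes up both proteins, fell by 1.15 on the log2 scale (SE 0.19, adjusted p = 2.49e-05). Slc22a17, the lipocalin 2 receptor 24p3R, fell by 0.82 (SE 0.13, adjusted p = 1.45e-05), while Mmp9, the gelatinase that lipocalin 2 binds, changed by -0.25 and was not called. The share of all probes called lower was 20.9%. These 3 of 4 listed genes had a median of -0.82, and none was called in the other 7 groups. Lrp2 is also a proximal tubule marker, and that list's fall is given above. Of the clusterin receptors Lrp1 and Vldlr, changes at 8 h of ischemia were -0.14 and 0.05, and neither was called against normal rats in any group. Vldlr was called higher at 8 h of mercuric chloride against sham (0.71, adjusted p = 0.00331).

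Regulators named for Clu in the literature on stress genes (heat shock factors, AP-1, Egr1 and Tgfb1) were tested for 9 of 10 listed genes. At 2 h of ischemia 6 rose (median 1.79, all probes -0.06), 5 with αMSH (median 1.72, all probes -0.08), and 7 at 8 h of ischemia (median 1.18, all probes 0.01). Over all probes 7.36%, 6.68% and 20.8% were called higher in these groups, in that order. Mercuric chloride raised 1 at 2 h and 4 at 8 h (medians 0.27 and 1.19, all probes -0.05 and -0.03). Cisplatin raised 2 (median 0.36, all probes 0.02), and sham surgery and volume depletion none. The shares of all probes called higher were 3.07% and 5.27% for mercuric chloride and 0.532% for cisplatin. For sham surgery and volume depletion they were 0.298% and 0.0740%. None fell in any group. Fos, an immediate early AP-1 factor, rose by 6.16 ± 0.66 at 2 h of ischemia and 3.31 ± 0.70 at 8 h, and by 3.23 ± 0.79 at 8 h of mercuric chloride and 3.79 ± 0.79 after cisplatin (adjusted p = 2.07e-07, 0.000457, 0.00713 and 0.0221). Fosl1, another AP-1 factor, rose in the groups where Clu was called, by 1.84 at 2 h of ischemia, 1.72 with αMSH, 3.18 at 8 h, and 1.80 at 8 h of mercuric chloride (adjusted p = 2.21e-06, 1.74e-05, 2.79e-10 and 7.06e-05). In the other groups Fosl1 changed by -0.12 to 0.36 and was not called. Junb was called in the same groups as Fosl1, by 3.48, 3.39, 2.48 and 1.59 in that order. Egr1 was called in those groups as well, by 4.80, 4.58, 2.68 and 3.81. Unlike Clu, Egr1 was also called at 2 h of mercuric chloride (2.98, limma adjusted p = 0.0027).

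Among 15 tested of 22 listed injury marker genes, 4 rose at 2 h of ischemia, 7 rose and 2 fell at 8 h, and 2 rose at 8 h of mercuric chloride. Over all probes 7.36% were higher at 2 h of ischemia, 20.8% higher and 20.9% lower at 8 h, and 5.27% higher at 8 h of mercuric chloride, so the 2 that fell are no larger a share than over all probes. With αMSH, Vim, Cd44, Ccn1, Plaur, Icam1 and Vcam1 were called higher and none lower, where 6.68% of all probes were called higher. Calb1 was not tested in that group. None of the listed genes was called at 2 h of mercuric chloride, after cisplatin, after sham surgery or in volume depletion. Havcr1 rose by 4.94 ± 0.41 at 8 h of ischemia (adjusted p = 8.49e-10), and changed by 0.31 at 2 h (adjusted p = 0.71), a time at which Lcn2 and Clu were called. Havcr1 changed at 8 h of mercuric chloride by 0.76 ± 0.46 (adjusted p = 0.369), and in volume depletion by 1.48 ± 0.39 (adjusted p = 0.188). Plaur, the urokinase receptor, was called in the 4 groups in which Clu was, with 3.27, 3.37, 4.43 and 0.99 at 2 h of ischemia, with αMSH, at 8 h and at 8 h of mercuric chloride.

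**Figure D4:**
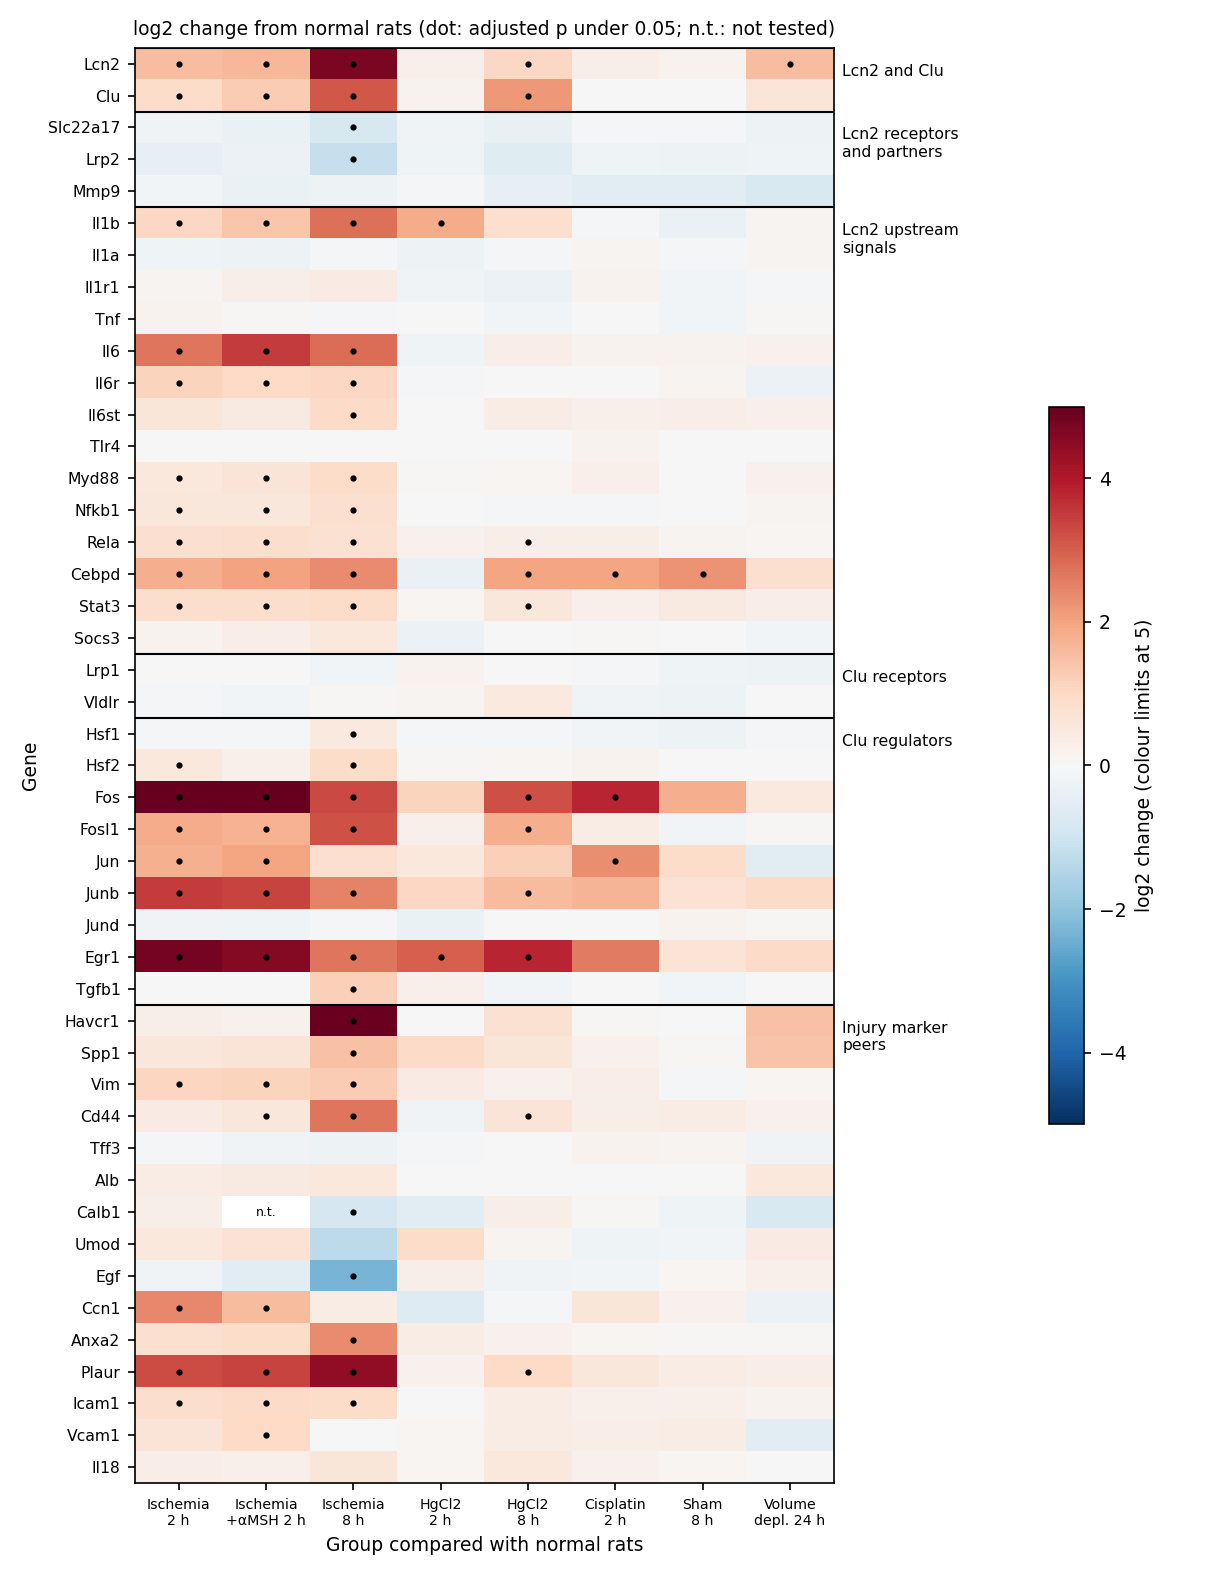
Heat map of log2 change from normal rats for Lcn2, Clu and the genes of 5 lists (rows) in 8 groups (columns), red for higher and blue for lower, with colours limited at 5 and a dot where the adjusted p is under 0.05. Ischemia columns hold most dots, and the volume depletion column holds a dot for Lcn2 alone (1.53).

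The remaining lists were compared in the same way. Of the lipocalin family 3 of 8 were tested, and beside Lcn2 itself Ptgds, a prostaglandin D synthase, fell by 1.06 at 2 h of mercuric chloride (adjusted p = 0.049), where 4.61% of probes were called lower. Of 7 iron genes, Hmox1, which degrades heme, rose by 5.13 ± 0.29 at 8 h of ischemia and 6.90 ± 0.33 at 8 h of mercuric chloride (adjusted p = 1.67e-12 and 1.93e-13), and by 6.54 ± 0.29 at 2 h of mercuric chloride (adjusted p = 4.99e-14), when neither Lcn2 nor Clu was called. Hmox1 was also called higher at 2 h of ischemia (3.41 ± 0.28, limma adjusted p = 1.64e-09) and with αMSH (3.73 ± 0.29, limma adjusted p = 1.28e-09), where both members were called. The iron exporter Slc40a1 rose by 1.37 at 8 h of mercuric chloride (adjusted p = 6.93e-06) and changed by -0.53 at 2 h of ischemia (limma adjusted p = 0.0135). Over all probes 7.36% were called higher and 7.37% lower at 2 h of ischemia, and 6.68% higher with αMSH. For mercuric chloride 3.07% were called higher at 2 h and 5.27% at 8 h. Of 7 acute phase genes, A2m, Fgb and Hp rose at 8 h of ischemia by 2.02, 1.94 and 1.15 (adjusted p = 6.48e-10, 2.22e-05 and 0.0161), and Apcs, a pentraxin, fell by 0.78 (adjusted p = 0.00162). Over all probes 20.8% were called higher and 20.9% lower at 8 h of ischemia. Apcs was also called lower at 2 h of ischemia (-0.64, limma adjusted p = 0.0137). Its change was -1.62 at 2 h and -0.95 at 8 h of mercuric chloride (limma adjusted p = 3.47e-06 and 0.00327). Of the terminal complement genes, whose products clusterin binds, 2 of 9 were tested and none was called in 8 comparisons. Bax, which intracellular clusterin is known to bind, changed by 0.47 at 8 h of ischemia (adjusted p = 0.0338) and by 0.71 at 8 h of mercuric chloride (adjusted p = 0.017), and was named after its values were seen. Bcl2l1, listed with Bax, changed by 0.77 at 8 h of ischemia (limma adjusted p = 0.0075). At 8 h of mercuric chloride Bcl2l1 changed by 0.38 and was not called.

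Genes with the most similar pattern were ranked by Pearson r over 26 treated rats among 1634 genes. This is a description with no p, since the rats fall into groups and the 8 h ischemia rats lie far from the rest. For Lcn2 the highest were Il24 (r = 0.933), Cd24 (0.932), Abhd2 (0.922), S100a16 (0.915) and Homer3 (0.914). Il24, a cytokine of the interleukin 10 family, changed by 1.59 at 2 h and 4.70 at 8 h of ischemia, but by 0.08 at 8 h of mercuric chloride, where Lcn2 changed by 1.04. Havcr1 stood at rank 8 (r = 0.907) and Clu at rank 135 (r = 0.786).

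For Clu the highest were Gpnmb (r = 0.948), Hars1 (0.887), Agpat2 (0.883), Cdkn2b (0.883) and Rrp15 (0.863). Gpnmb, a transmembrane glycoprotein of lysosomes, changed by 2.81 at 8 h of ischemia and 1.68 at 8 h of mercuric chloride, close to 3.12 and 2.17 for Clu. Lcn2 stood at rank 53 for Clu and Havcr1 at rank 139 (r = 0.709). Over the 8 group means Gpnmb was again first for Clu (r = 0.984), while Il24 stood at rank 13 for Lcn2 and Cd24 at rank 2.

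**Figure D5:**
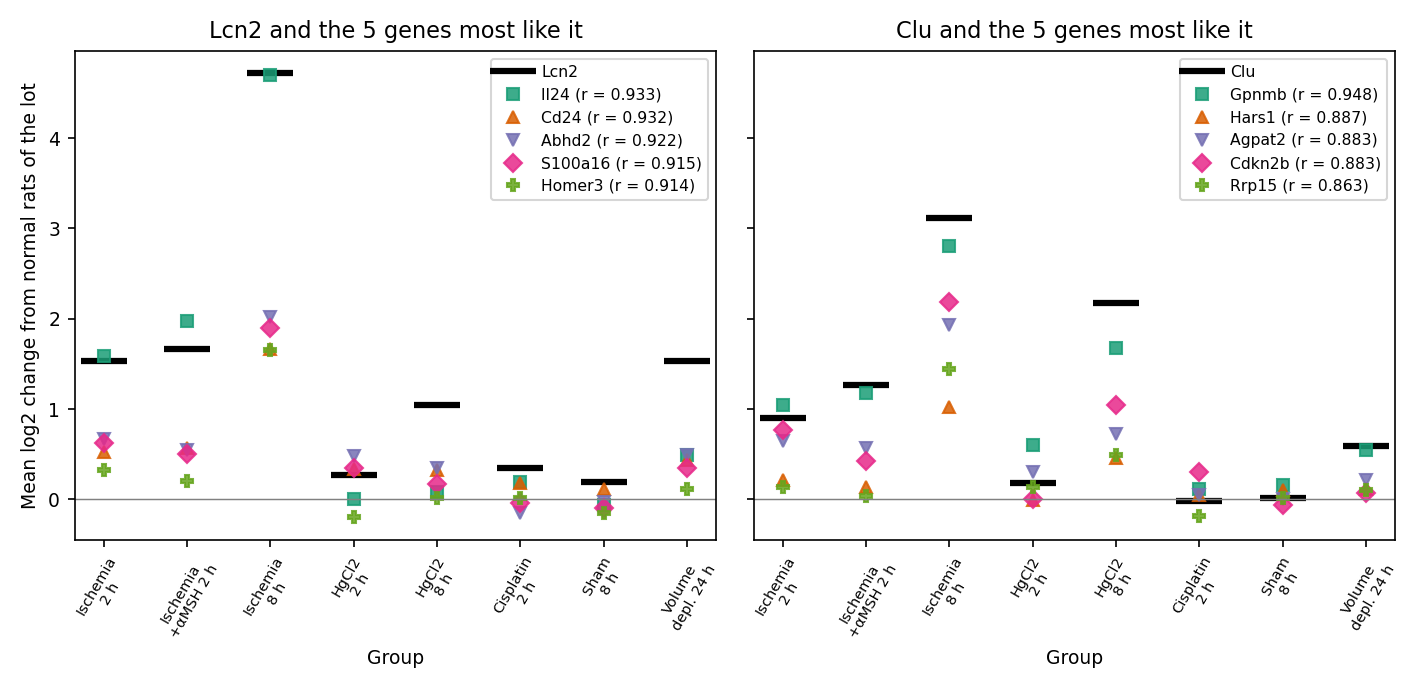
Mean log2 change from normal rats of the lot by group for Lcn2 (left) and Clu (right), as black bars, and for the 5 genes of highest Pearson r over 26 rats, as symbols. At 8 h of mercuric chloride Il24 lies at 0.08 beside Lcn2 at 1.04, and Gpnmb at 1.68 beside Clu at 2.17.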

How the data were processed

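The deposited table holds 36 CodeLink arrays with biotin label, per the labels. Its unit is of another kind than usual: each deposited value is 2 raised to an intensity already divided by about its array median, read from the values (99.386% of 353337 log2 values were whole multiples of 0.0001 and array medians of log2 lay at 0.9987 to 1.0). Neither scanner software nor background correction is given in the sources used here. A deposited 0.5 was a fill value, 0.97% of values, and was treated as missing.

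The log2 of each deposited value was divided by its array median, floored at 0.1 and brought to log2; 1.65% to 12.91% of probes per array lay at the floor. Replicate arrays were averaged per rat. Probes were named from the platform annotation (7178 with 1 symbol, 21 with several, 2712 with none). The tested probes had values in at least 2/3 of the rats, in 2 or more rats of both groups compared, and above the floor in 3 rats. All rats were fitted with limma 3.58.1 in R 4.3.3, with group and lot as terms (21 residual degrees of freedom), and Benjamini-Hochberg adjusted p-values under 0.05 were called. The fit was tested on simulated data. Permutations numbered 100000 for relations and were exact for group differences, in SciPy 1.17.1.

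Replicate numbers did not pair the rats: same-numbered rats of a lot had deviations with a median correlation of 0.0185 over 55 pairs (-0.59 to 0.536), against -0.00213 over 156 pairs with other numbers. Labels do not say whether rats were treated on separate days, so p-values measure the spread between these rats.

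Members and gene lists were chosen with earlier results of these data known. From each list the text names up to 4 genes called with a log2 change of at least 1, by size, beside the receptors and Havcr1; a few others were named after their values were seen. The alternatives covered floors, scaling, filter, lot term, rats in the fit, sham rat 3, duplicate arrays, moderation, array weights, a replicate block and leaving out each rat.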

Additional observations from a re-analysis of the deposited data

Results flagged for a closer look

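The change of Lcn2 between 2 h and 8 h differed between injuries by an interaction term. It was larger in ischemia than in mercuric chloride by 2.42 on the log2 scale (limma adjusted p = 0.000818). The difference was 2.22 to 2.58 with each rat left out in turn and was called in all 18 of those fits. The mercuric chloride times lie in different array lots, and that change is measured through the normal rats of each lot. No rat was set apart in 6 outlier tests, of 2 genes in the 3 groups of 4 or more rats (2 h ischemia, volume depletion and the normal rats of both lots, each set against its own lot), where chance alone marks about 1 in 20. The 8 h ischemia and both mercuric chloride groups, of 3 rats each, were not tested for outliers. The outlier tests thus do not cover most of the treated rats in the interaction.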

How the results depend on the processing

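Over 36 results, 691 of 740 alternative values kept their direction and side of the threshold, 21 lost the call, 16 gained one and 12 changed sign. All values here are log2 changes with limma adjusted p-values, and the cause of a change was not tested.
Against normal rats, Clu at 2 h of ischemia lost its call with quantile normalization (0.89, adjusted p = 0.0752), 75th percentile scaling (0.91, adjusted p = 0.0554), no filter (0.90, adjusted p = 0.0532), only the groups compared (0.90, adjusted p = 0.0675), only rats of the lot (0.90, adjusted p = 0.103) and first arrays (0.87, adjusted p = 0.0626), and lay at 0.64 to 1.06 with a rat left out. Leaving out a rat gave 1.15 to 1.43 for Clu with αMSH and 0.89 to 1.24 for Lcn2 at 8 h of mercuric chloride. Lcn2 in volume depletion lost its call with only the groups compared (1.53, adjusted p = 0.168), and lay at 1.32 to 1.70 and was called without each rat. Uncalled values changed sign for Clu after cisplatin (0.03 with array weights, -0.13 to 0.13 without a rat) and sham surgery (-0.36 with no lot term, -0.13 to 0.18), and for Lcn2 between the αMSH and plain ischemia groups (-0.04 to 0.30).
Between 8 h and 2 h of mercuric chloride, Clu was called with a floor of 0.2 (1.99), no lot term (1.36), only the groups compared (1.99), first arrays (2.04), array weights (2.07, adjusted p = 0.000372) and without the doubted arrays (2.10, adjusted p = 0.00595), and Lcn2 with no lot term (1.08). The doubted arrays, a choice made after seeing the data, were those of 8 h ischemia rat 3 and normal rat 1 and the first of volume depletion rat 1. Without them Clu was called for ischemia over mercuric chloride at 2 h (0.73, adjusted p = 0.0279; with array weights 0.60, adjusted p = 0.0434) and at 8 h (1.34, adjusted p = 0.0311; array weights 1.29, no lot term 1.58, without a rat 0.50 to 1.46). Against cisplatin, 2 h ischemia was called with no lot term (Clu 1.55, Lcn2 0.87) and array weights (Lcn2 1.16), and the Lcn2 difference of mercuric chloride was 0.01 with array weights and -0.23 to 0.06 without a rat. The Clu interaction lay at -0.23 to 0.73. With sham rat 3 as deposited, Lcn2 against sham was 3.0 for 8 h ischemia (adjusted p = 0.0913) and -0.68 for 8 h mercuric chloride, and with the lines moved the second lay at 0.72 to 1.05 without a rat.
With the replicate number as a block, Clu at 2 h of ischemia was 0.98 (adjusted p = 0.134), Clu with αMSH 1.27 (adjusted p = 0.0595) and Lcn2 in volume depletion 1.45 (adjusted p = 0.0599), and the block changed no other member's call. The block was set within a lot, so comparisons across lots were not fitted with it, nor were lot 2 groups with their normal rats, which share no number.
Against normal rats, probes called in volume depletion numbered 16 (1 with only the groups compared to 178 with array weights over the alternatives other than leaving out a rat), and 1395 (895 to 2476) for 2 h ischemia, 1251 (715 to 2261) with αMSH, 3947 (1487 to 5145) for 8 h ischemia, 727 (397 to 2191) and 1029 (953 to 2744) for mercuric chloride at 2 h and 8 h, 54 (5 to 499) for cisplatin and 33 (13 to 395 with the lines of sham rat 3 moved) for sham. Between treated groups they numbered 3580 (1632 to 4532) for ischemia and 65 (52 to 1633) for mercuric chloride between the times, 2150 (499 to 4191) and 1241 (644 to 3153) for ischemia and mercuric chloride against sham, 1427 (962 to 2869) and 1112 (234 to 3122) for ischemia against mercuric chloride at 2 h and 8 h, 207 (147 to 2418) and 89 (72 to 2215) for ischemia and mercuric chloride against cisplatin, and 567 (294 to 2133) for the interaction. Leaving out a rat moved these counts by over 1.5 times with αMSH (784 to 1282), for mercuric chloride at 2 h (370 to 658) and 8 h (472 to 1066), cisplatin (15 to 141), sham (9 to 26) and volume depletion (7 to 20), between the mercuric chloride times (30 to 98), for ischemia against mercuric chloride at 8 h (606 to 1599), for ischemia and mercuric chloride against cisplatin (102 to 302 and 33 to 154) and for the interaction (296 to 1078).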
